A study of Homo sapiens with 4 samples.

Results

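The cyclins, cyclin dependent kinases (CDKs), CDK inhibitors, replication licensing factors, E2F factors and mitotic regulators of the array were described in SK-MEL28 cells after 2 kinds of electric pulses. Members were chosen by gene symbol alone (CCN followed by a letter, CDK, CDC, MCM, E2F, PLK, BUB, MAD2 and ORC), and CCNF, CDC25C, CCND1 and E2F3 were left out. They came to 56 genes out of 1892 named on the array, read by 57 of its 3048 oligonucleotides, since CDC25A had 2. SK-MEL28 is an established human malignant melanoma cell line. Cells were exposed to 8 pulses of 100 μs at 1300 V/cm, as used in electrochemotherapy (ECT pulses), or to 8 pulses of 5 ms at 600 V/cm, as used in electrogene therapy (EGT pulses), and were compared with untreated cells of the same line. Each array was hybridised with RNA of exposed cells in Cy5 and RNA of untreated cells in Cy3, taken 16 h after the pulses, and there were 2 arrays for each kind of pulse. Dyes were not swapped on any array, so a dye effect of an oligonucleotide and an effect of the pulses cannot be told apart. It is not stated if a pulse type's 2 arrays came from separate cultures, and both pulse types may share 1 untreated culture, so the error below may be technical. Cisplatin, a drug that the methods do not mention for these cells, appears in the source names of EGT arrays 1 and 2 and of ECT array 2.

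Cyclins bind CDKs and switch them on in a set order, with D and E cyclins in G1, cyclin A in S phase and cyclin B in mitosis, while inhibitors of the INK4 and CIP/KIP families hold the kinases back. In G1 the origin recognition complex, CDC6 and CDT1 load the MCM helicase on origins, and S phase kinases then start replication. E2F factors drive transcription of many of these genes when the retinoblastoma protein is phosphorylated, and in melanoma this control is often lost through CDKN2A or CDK4.

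The melanoma label was checked first. All 7 melanocyte markers looked for were measured on all 4 arrays, but so were 4 of 5 blood cell, 5 of 5 epithelial, 3 of 5 endothelial and 1 of 1 fibroblast oligonucleotides, so being measured on this array is not specific to a cell type. An oligonucleotide counted as measured on an array when at least 2 of its spots were at least 2 times the local background in both channels. These spots also had to be at most 65000, with a background SD of at most 0.3 of the intensity. Between 39.6% and 50.4% of all oligonucleotides passed on an array. The log2 ratios of ECT array 1 and EGT array 2 correlated at r = 0.74 across oligonucleotides, and the other 5 pairs of arrays lay between 0.401 and 0.482. The 2 arrays of a pulse type were therefore not the most alike pair, and oligonucleotides are not independent replicates.

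Among the member oligonucleotides, 1 stood out in the data. CDK2AP2 was lower in exposed cells on all 4 arrays, and beyond 1.5-fold on both EGT arrays. No other member passed 1.5-fold the same way on both arrays of a pulse type, and most measured members lay close to 0. This covers the members alone. The paper lists CCNF and CDC25C, which were left out here, as higher after both kinds of pulses. It also lists CDK2AP2, under the name DOC1R and the same RefSeq number, as lower after EGT pulses. CDK2AP2 encodes the paralogue of CDK2AP1, a CDK2 binding protein that is also found in the NuRD chromatin complex. The promoters of CDK2AP2, of MCM6, the highest member after ECT pulses, and of CDKN3, the second lowest after EGT pulses, are printed to show the sequence upstream of the members at the ends of the range. Each is the 250 bases before the RefSeq transcription start on GRCh38.p14, on the strand of the gene. Capitals mark CCAAT boxes in CDK2AP2, the E2F letters (TTTGGCGC or TTTCGCGC, on either strand) in MCM6 and the CHR element (TTTGAA, on either strand) in CDKN3.
CDK2AP2, chr11:67508163-67508412, minus strand: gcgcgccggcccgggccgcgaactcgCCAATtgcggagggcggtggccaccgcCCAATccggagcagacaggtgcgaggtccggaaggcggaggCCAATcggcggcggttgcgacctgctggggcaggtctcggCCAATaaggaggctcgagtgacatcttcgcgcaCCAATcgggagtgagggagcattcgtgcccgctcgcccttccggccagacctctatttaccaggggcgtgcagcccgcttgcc
MCM6, chr2:135876444-135876693, minus strand: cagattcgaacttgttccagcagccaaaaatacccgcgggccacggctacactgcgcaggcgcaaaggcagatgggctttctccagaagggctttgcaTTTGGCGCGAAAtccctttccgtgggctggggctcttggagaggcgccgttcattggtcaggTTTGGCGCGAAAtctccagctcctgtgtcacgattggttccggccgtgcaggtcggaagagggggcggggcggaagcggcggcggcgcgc
CDKN3, chr14:54396757-54397006, plus strand: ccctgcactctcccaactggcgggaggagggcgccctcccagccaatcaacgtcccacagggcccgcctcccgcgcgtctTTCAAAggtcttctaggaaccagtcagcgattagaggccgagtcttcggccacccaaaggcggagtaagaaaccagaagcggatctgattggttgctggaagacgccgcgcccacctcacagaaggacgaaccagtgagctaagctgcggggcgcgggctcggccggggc
The CDK2AP2 window held CCAAT 5 times, at 224, 197, 156, 116 and 83 bases before the start. At least 5 matches were found in 0.319% of 35116 promoters of this length, and among the members only in CDK2AP2. The cut-off of 5 is the count of this window, so the share describes the window and is not a test. CCAAT, on either strand, was also present in the MCM6 and CDKN3 windows, where it is not marked. MCM6 held 2 runs in which both E2F letter strings overlap, at 152 and 90 bases before the start. CDKN3 held 1 CHR match, 170 bases before the start on the opposite strand, so it reads TTCAAA as printed.

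RefSeq promoters were found for 53 of the 56 genes, in 79 windows because some genes have several starts. Either E2F string was present in 6.33% of these windows, those of CDC25A, CDK1, E2F1, MCM6 and MCM7, and in 0.968% of all windows. CCAAT was present in 49.4% of member windows and 32% of all windows, and the CHR letters in 11.4% of member windows and 13.3% of all. A match is a description of the letters and was not set against binding.

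Whether a member could be read depended on the array. Members were measured more often than all oligonucleotides together, with 39 of 57 on ECT array 1 (68.4%, against 48.5% of all), 28 on ECT array 2 (49.1%, against 39.6%), 33 on EGT array 1 (57.9%, against 45.7%) and 45 on EGT array 2 (78.9%, against 50.4%). The Cy5 signal, that of exposed cells, was the dimmer one, and dye and exposure cannot be told apart here. Over the 57 members the median of signal over background in exposed cells (Cy5) was 2.53 on ECT array 1, 2.13 on ECT array 2, 2.36 on EGT array 1 and 2.89 on EGT array 2. In untreated cells (Cy3) it was 7.33, 3.45, 5.41 and 4.14 on the same arrays. Members that passed the intensity filter in Cy3 but not in Cy5 numbered 8 on ECT array 1, 5 on ECT array 2, 7 on EGT array 1 and 2 on EGT array 2, while the reverse occurred for 1 member on EGT array 2 and none on the others. MCM7 was the only member kept out of the ECT comparison by exposed cells alone on both arrays, and its bound lay under 1-fold, so no fold is given.

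**Figure D1:**
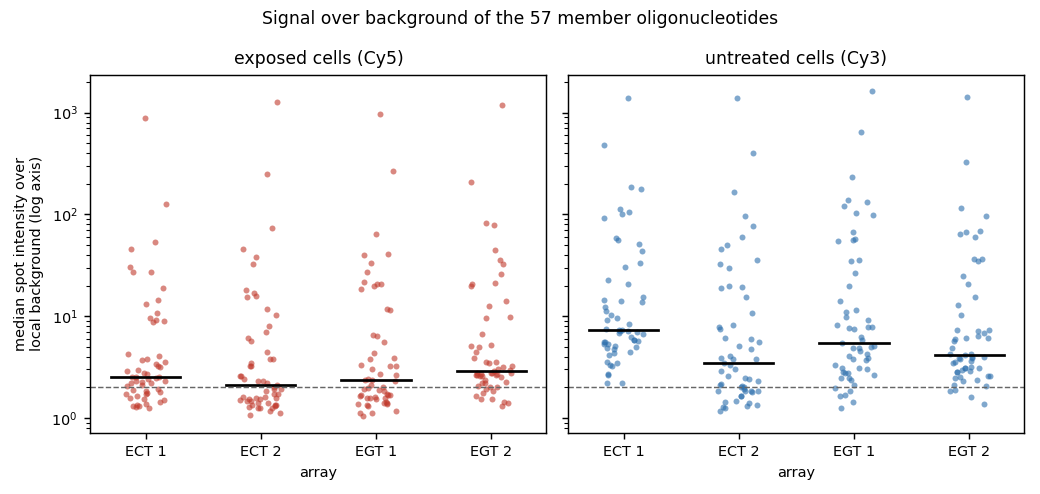
Median spot intensity over local background (log axis) of the 57 member oligonucleotides on each array, in exposed cells (Cy5, left panel) and untreated cells (Cy3, right panel). Each point is 1 oligonucleotide, black bars are medians and the dashed line is the filter at 2 times background. The medians lie between 2.13 and 2.89 in exposed cells and between 3.45 and 7.33 in untreated cells.

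On all 4 arrays 26 members were measured (45.6%, against 38.2% of all oligonucleotides). Another 9, namely CCNC, CCNG2, CDC23, CDC25B, CDC6, CDC7, CDK9, MCM2 and PLK3, were measured on ECT array 1 and EGT array 2 only, which was 15.8% of members and 4.43% of all oligonucleotides. CCNB1, CCNG1, CDC16 and CDK1 were missing only on ECT array 2. On no array were 12 members measured (21.1%, against 46.3% of all oligonucleotides). They were BUB1B, CCNA2, CCNT2, CDC14A, CDC45, CDK13, CDK7, CDKL1, CDKN1A, ORC2, PLK4 and 1 of the 2 CDC25A oligonucleotides. A missing value means that fewer than 2 spots passed the filters on signal and background SD, not that the gene was silent.

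**Figure D2:**
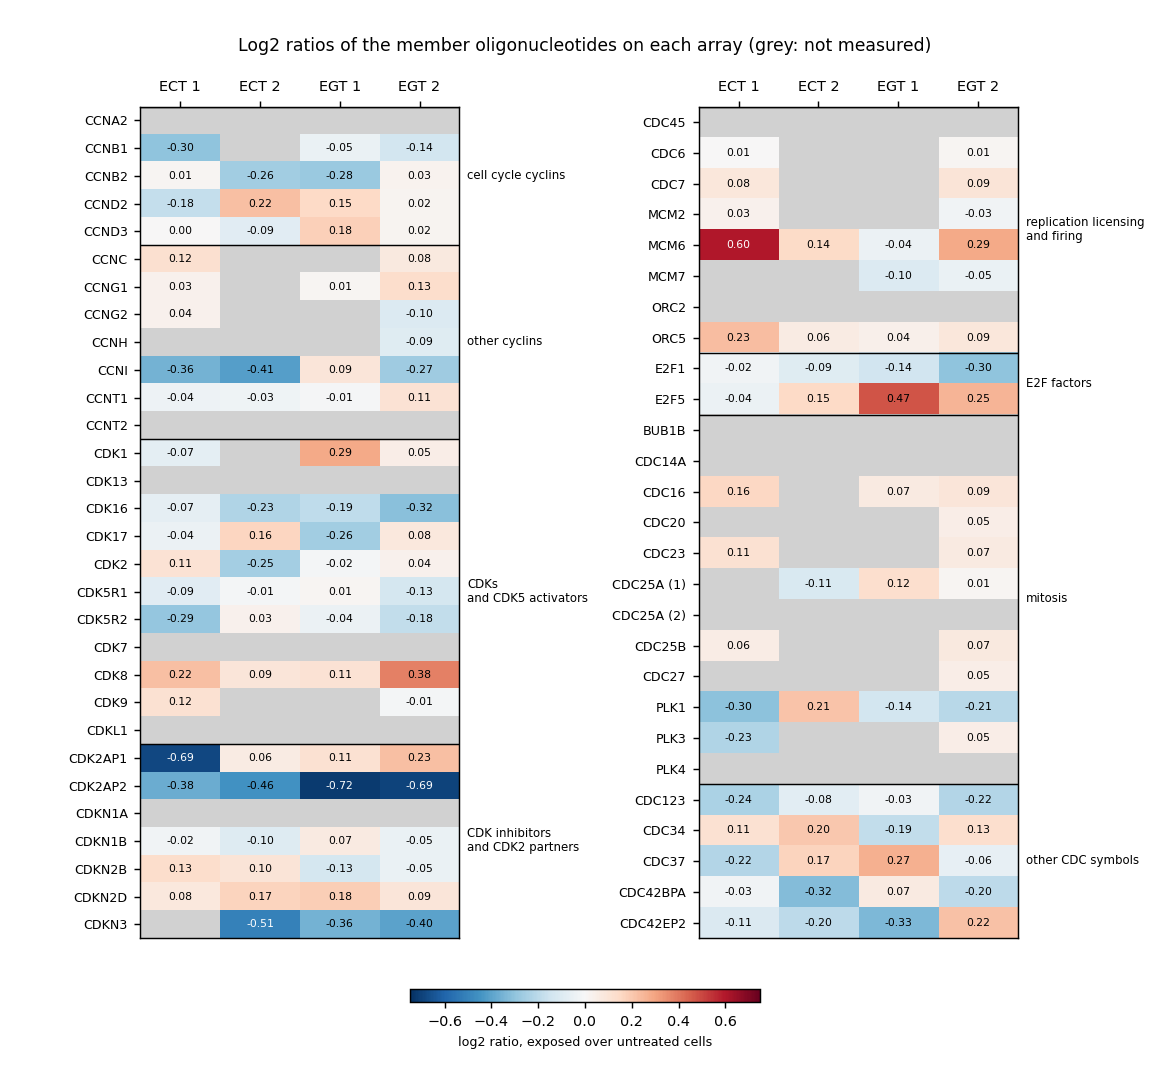
Log2 ratio of exposed over untreated cells for all 57 member oligonucleotides (rows, by role) on the 4 arrays (columns), with grey for not measured. CDK2AP2 is the darkest blue on both EGT arrays, at -0.72 and -0.69, and MCM6 the darkest red, at 0.60 on ECT array 1.

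None of the member cyclins that time the cell cycle passed a test, but only 3 of 5 were tested after ECT pulses and 4 of 5 after EGT pulses. CCNA2 was measured on no array, and CCNB1 was not measured on ECT array 2. CCNF and CCND1, which were left out, are not covered. CCNB1, a mitotic cyclin, had log2 ratios of -0.30 on ECT array 1, -0.05 on EGT array 1 and -0.14 on EGT array 2, so all 3 readings were below 0, although median centring of the arrays in place of loess put its EGT mean at 0.02. CCNB2, the second B cyclin, read 0.01 and -0.26 after ECT pulses, and -0.28 and 0.03 after EGT pulses. The 2 arrays of each pulse type thus differed by about as much as the lowest reading itself. The G1 cyclin CCND2 was at -0.18 and 0.22 after ECT pulses, and at 0.15 and 0.02 after EGT pulses. CCND3 was at 0.00 and -0.09 after ECT pulses, and at 0.18 and 0.02 after EGT pulses. Of the 4 member timing cyclins measured at least once per pulse type, only CCNB1 had 1 sign on every array that read it.

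CCNI, an atypical cyclin, was among the 2 lowest members after ECT pulses. It read -0.36 and -0.41 after ECT pulses, a mean of -0.38 ± 0.039 (SD, n = 2), and 0.09 and -0.27 after EGT pulses. Its 4 spots on ECT array 1 ran only from -0.36 to -0.35, and those on EGT array 1 from -0.44 to 0.22. The ECT value had a limma adjusted p of 0.21, so it did not pass, and it was -0.59 with median centring. CCNT1, the cyclin of the elongation kinase P-TEFb, was within -0.04 and 0.11 on all arrays. CCNG1 and CCNG2, which are targets of stress signalling, lay between -0.10 and 0.13 wherever they were measured. In the authors' normalized values these readings lay between -0.002 and 0.388. With plain background subtraction CCNG1 averaged 0.235 after EGT pulses.

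Among the kinases, CDK1, the mitotic CDK, read -0.07 on ECT array 1, and 0.29 and 0.05 on the EGT arrays. CDK2, which acts at the start of S phase, read 0.11 and -0.25 after ECT pulses, and -0.02 and 0.04 after EGT pulses. Readings of both genes lay on both sides of 0. CDK8, the kinase of the Mediator complex, was above 0 on all arrays, at 0.22 and 0.09 after ECT pulses, and at 0.11 and 0.38 after EGT pulses. CDK16, a PCTAIRE kinase that pairs with cyclin Y, was below 0 on all arrays, at -0.07 and -0.23 after ECT pulses, and at -0.19 and -0.32 after EGT pulses. Over both pulse types the limma mean was 0.20 ± 0.079 for CDK8 (SE, adjusted p = 0.166) and -0.20 ± 0.073 for CDK16 (SE, adjusted p = 0.149), and neither passed. With median centring CDK8 averaged 0.515 after ECT pulses and CDK16 averaged -0.46 after ECT pulses and -0.50 after EGT pulses, and with plain background subtraction CDK8 averaged 0.44 after ECT pulses and 0.57 after EGT pulses. CDK5R1 and CDK5R2, activators of CDK5 best known from neurons, ranged from -0.29 to 0.03.

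CDK2AP2 had log2 ratios of -0.38 and -0.46 after ECT pulses, and of -0.72 and -0.69 after EGT pulses. All 16 of its spots were kept, and all were below 0, from -1.31 to -0.19 after ECT pulses and from -0.94 to -0.42 after EGT pulses. Its background-subtracted intensities were 322.5 and 262.5 in ECT-exposed cells, against 1406 and 741 in the untreated cells of the same arrays, and 281 and 303.5 in EGT-exposed cells, against 1109 and 704 in untreated cells, before the dyes were balanced by normalization. The spots were thus bright in both channels, at least 15.8 times background. The mean corresponded to 1.33-fold lower after ECT pulses (-0.42 ± 0.058, SD, n = 2) and 1.63-fold lower after EGT pulses (-0.705 ± 0.018, SD, n = 2). Neither mean passed on its own, with limma adjusted p of 0.199 for ECT and 0.211 for EGT. Over both pulse types the mean of -0.56 ± 0.068 (SE) passed, with a limma adjusted p of 0.0253. That call was lost without ECT array 1 (adjusted p = 0.11), EGT array 1 (0.169) or EGT array 2 (0.314) in the limma fit, while the mean stayed between -0.58 and -0.54.

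CDK2AP1, its paralogue, was below 0 on 1 array. It read -0.685 on ECT array 1 but 0.06 on ECT array 2, and 0.11 and 0.23 on the EGT arrays. The low reading came from all 4 spots of ECT array 1, from -0.93 to -0.60, and the 4 spots of ECT array 2 ran from -0.07 to 0.33. The ECT mean of -0.31 ± 0.53 (SD, n = 2) therefore rests on 1 array.

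Among the other inhibitors, CDKN3, a phosphatase that removes the activating phosphate of CDK2, was below 0 on the 3 arrays that measured it, at -0.51 on ECT array 2, and at -0.36 and -0.40 on the EGT arrays. The EGT mean was -0.38 ± 0.032 (SD, n = 2), with a limma adjusted p of 0.254, and it was -0.76 with plain background subtraction. Its brightness differed widely between arrays. In exposed cells the background-subtracted intensity was 11 on ECT array 1, 100.5 on ECT array 2, 543.5 on EGT array 1 and 17 on EGT array 2, against 87.5, 264, 1552 and 42 in the untreated cells of those arrays. Only 2 of its 4 spots were kept on EGT array 2 and none on ECT array 1, and the part of this brightness in the result was not tested.

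The INK4 inhibitor CDKN2D (p19) was above 0 on all arrays, at 0.08 and 0.17 after ECT pulses, and at 0.18 and 0.09 after EGT pulses. Median centring turned its means to -0.12 after ECT pulses and -0.07 after EGT pulses. CDKN2B (p15) read 0.13 and 0.10 after ECT pulses, and -0.13 and -0.05 after EGT pulses, so its 2 pulse types lay on opposite sides of 0. With median centring its means were 0.41 after ECT pulses and 0.04 after EGT pulses, both above 0. CDKN1B (p27) stayed between -0.10 and 0.07. CDKN1A (p21), the p53 target that arrests cells after DNA damage, was measured on no array, at 1.24, 1.17, 1.04 and 1.32 times background in exposed cells, against 2.71, 1.18, 1.26 and 1.60 times in untreated cells of ECT arrays 1 and 2 and EGT arrays 1 and 2. It had 8 spots on each array and none passed, so p21 had no log2 ratio under this filter. Its median signal in exposed cells stayed under 2 times background on every array, and a small change in either direction could not be seen.

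**Figure D3:**
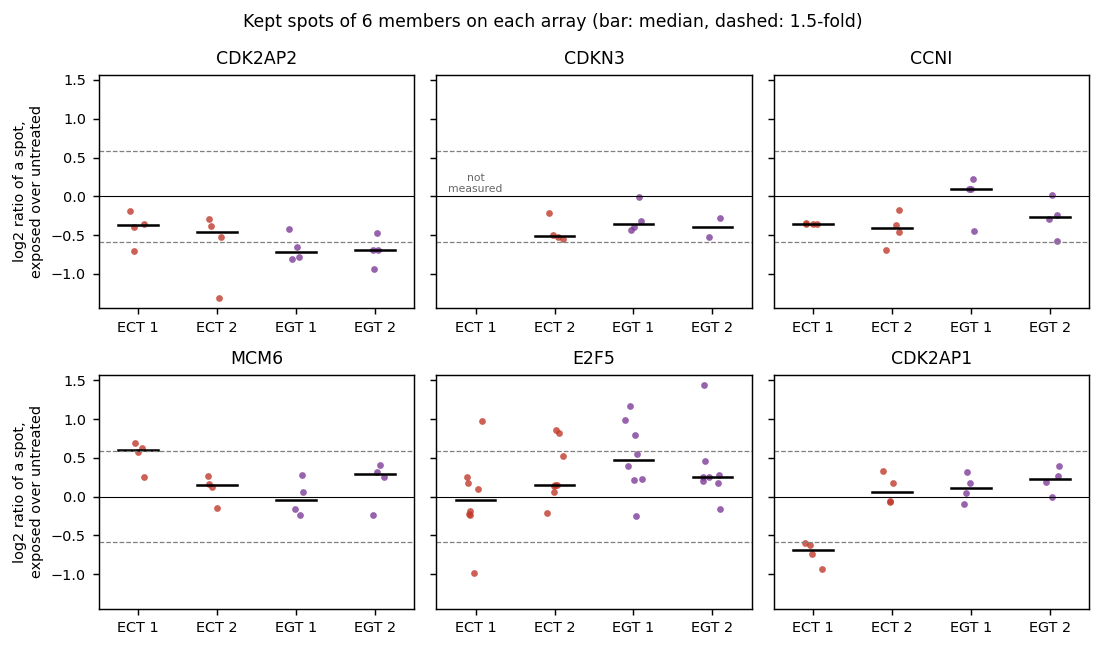
Log2 ratio of exposed over untreated cells for every kept spot of 6 members on the 4 arrays, with red points for ECT, purple points for EGT, a black bar at the median and dashed lines at 1.5-fold. All 16 CDK2AP2 spots are below 0, the 4 CDK2AP1 spots of ECT array 1 lie apart from those of the other arrays, and E2F5 spots spread from -0.99 to 0.98 on ECT array 1.

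Of the 8 oligonucleotides for replication licensing and firing, 2 were measured on both ECT arrays and 3 on both arrays of EGT pulses. MCM6, a subunit of the MCM helicase, had the highest ECT mean of all members, with 0.60 and 0.14 after ECT pulses, and -0.04 and 0.29 after EGT pulses. The ECT mean of 0.37 ± 0.32 (SD, n = 2) had a limma adjusted p of 0.289. The first array supplied most of it, and 1 of the 4 spots on ECT array 2 was below 0. ORC5, a subunit of the origin recognition complex, was above 0 on all arrays, at 0.23 and 0.06 after ECT pulses, and at 0.04 and 0.09 after EGT pulses, with ECT and EGT means of 0.285 and 0.11 after median centring. MCM7 read -0.10 and -0.05 on the EGT arrays. MCM2, CDC6, which loads the helicase, and CDC7, a kinase that fires origins, were read only on ECT array 1 and EGT array 2. All 6 readings lay between -0.03 and 0.09. In the authors' normalized values the same 6 readings lay between 0.03 and 0.35, with CDC7 highest.

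The 2 E2F factors lay on opposite sides of 0 after EGT pulses. E2F1, an activator, was below 0 on all arrays, at -0.02 and -0.09 after ECT pulses, and at -0.14 and -0.30 after EGT pulses. With median centring its means were 0.11 after ECT pulses and -0.09 after EGT pulses, and with plain background subtraction the EGT mean was -0.51. E2F5, which works mainly as a repressor with the pocket proteins, read -0.04 and 0.15 after ECT pulses, and 0.47 and 0.25 after EGT pulses. Its ECT mean was -0.22 with median centring, and its EGT mean, 0.36, was 0.16 with normexp on all spots. Neither passed, with limma adjusted p of 0.321 for E2F1 and 0.254 for E2F5 after EGT pulses. E2F5 has 8 spots, and on EGT array 1 the odd and even spots in the file were unlike. Odd spots had a median intensity of 692.5 in exposed cells, against 1490.5 in untreated cells, with a median log2 ratio of 0.22. Even spots had 104.5 in exposed cells, against 97 in untreated cells, with a median log2 ratio of 0.89. On EGT array 2 both sets were bright and gave 0.26 and 0.23. The reading of 0.47 thus mixes 2 kinds of spot, and the odd spots alone would place E2F5 near its value on EGT array 2. The sets were also unlike on ECT array 2. Odd spots there had medians of 476 in exposed cells and 676 in untreated cells, with a log2 ratio of 0.14. Even spots had 181 and 194, with a log2 ratio of 0.34. CDKN2D showed the same split on ECT array 2 and EGT array 1, where its odd spots had median intensities of 42.5 and 38 in exposed cells, against 36.5 and 37 in untreated cells, and 1 of 4 odd spots was kept on each. Its even spots had median log2 ratios below 0 on ECT array 1, at -0.15, and on EGT array 2, at -0.12. E2F1 also has 8 spots, and its odd and even medians had opposite signs on 2 arrays. They were 0.26 and -0.155 on ECT array 1, and 0.02 and -0.33 on EGT array 2. On EGT array 1 both were below 0, and on ECT array 2 only 2 even spots were kept.

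Mitotic regulators were mostly too dim for a comparison, since of 12 oligonucleotides 1 was measured on both ECT arrays and 3 were measured on both arrays of EGT pulses. PLK1, the polo kinase of mitotic entry, was bright but read -0.305 and 0.21 after ECT pulses, and -0.14 and -0.21 after EGT pulses. Its ECT readings had opposite signs. CDC25A, a phosphatase that activates CDK2, read -0.11 on ECT array 2, and 0.12 and 0.01 on the EGT arrays with 1 oligonucleotide, and its other oligonucleotide was not measured. CDC25B read 0.06 on ECT array 1 and 0.07 on EGT array 2. Subunits of the anaphase promoting complex read 0.05 to 0.16 wherever they were measured. That was on 3 arrays for CDC16, 2 for CDC23 and 1 for CDC27. The authors' normalized values on these arrays were 0.20 to 0.37. Where the filter left no reading, theirs were -0.44 for CDC16 on ECT array 2, and -0.09 for CDC23 and 0.13 for CDC27 on EGT array 1. The EGT mean of CDC16 was 0.22 with plain background subtraction. CDC20, the coactivator of this complex, read 0.05 on EGT array 2, the only array that measured it. The authors' values for CDC20 were -0.06 and 0.45 on EGT arrays 1 and 2. PLK3 read -0.23 on ECT array 1 and 0.05 on EGT array 2. Its spots in untreated cells were at 20.9 and 10.2 times background on those 2 arrays and at 1.44 times on both of the others.

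Under a CDC symbol, 5 oligonucleotides have other roles, and all were measured on every array. CDC34, the ubiquitin conjugating enzyme of SCF ligases, read 0.11 and 0.20 after ECT pulses, and -0.19 and 0.13 after EGT pulses. CDC123, an assembly factor of translation initiation, read -0.24 and -0.08 after ECT pulses, and -0.03 and -0.22 after EGT pulses, below 0 on every array. Its means were -0.41 and -0.34 for ECT and EGT with median centring. CDC37, an HSP90 cochaperone for kinases, had opposite signs on the 2 arrays of each pulse type, at -0.22 and 0.17 after ECT pulses, and at 0.27 and -0.06 after EGT pulses. CDC42BPA and CDC42EP2, which act with the GTPase CDC42 on the cytoskeleton, were below 0 on both ECT arrays and split in sign on the EGT arrays.

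After ECT pulses, the members' mean log2 ratios were narrow around 0. Among the 26 members measured on both ECT arrays the median was -0.05 (all 1176 oligonucleotides: -0.02), 9 were above 0 and 17 below, and the range was -0.42 to 0.37. Within 0.2 of 0 were 84.6% of members and 67.3% of all oligonucleotides. Members past 1.5-fold on both arrays numbered 0 higher (0.34% of all) and 0 lower (0.595% of all). limma called 0 members at an adjusted p under 0.05 (0% of all oligonucleotides), with a smallest adjusted p of 0.199 among members. At an unadjusted p under 0.05 there were 3 members, 11.5%, beside 16.4% of all. The 2 arrays were both above 0 for 6 members, 23.1%, beside 29.6% of all, and both below 0 for 10 members, 38.5%, beside 34.6% of all.

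After EGT pulses, CDK2AP2 was the only member past 1.5-fold on both arrays. The 33 members had a median of -0.03 (all 1327 oligonucleotides: -0.01), 16 above 0 and 17 below, and a range of -0.705 to 0.36. Within 0.2 of 0 were 81.8% of members and 72% of all. Past 1.5-fold on both arrays were 0 members higher (0.151% of all) and 1 lower, CDK2AP2 (0.452% of all). With normexp background correction fitted to all spots, CDK2AP2 no longer passed this threshold and the count was 0. limma called 0 members (0% of all), and 4 members, 12.1%, had an unadjusted p under 0.05, beside 15.7% of all. Both arrays were above 0 for 11 members, 33.3%, beside 29.9% of all, and both below 0 for 10, 30.3%, beside 34.9% of all.

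**Figure D4:**
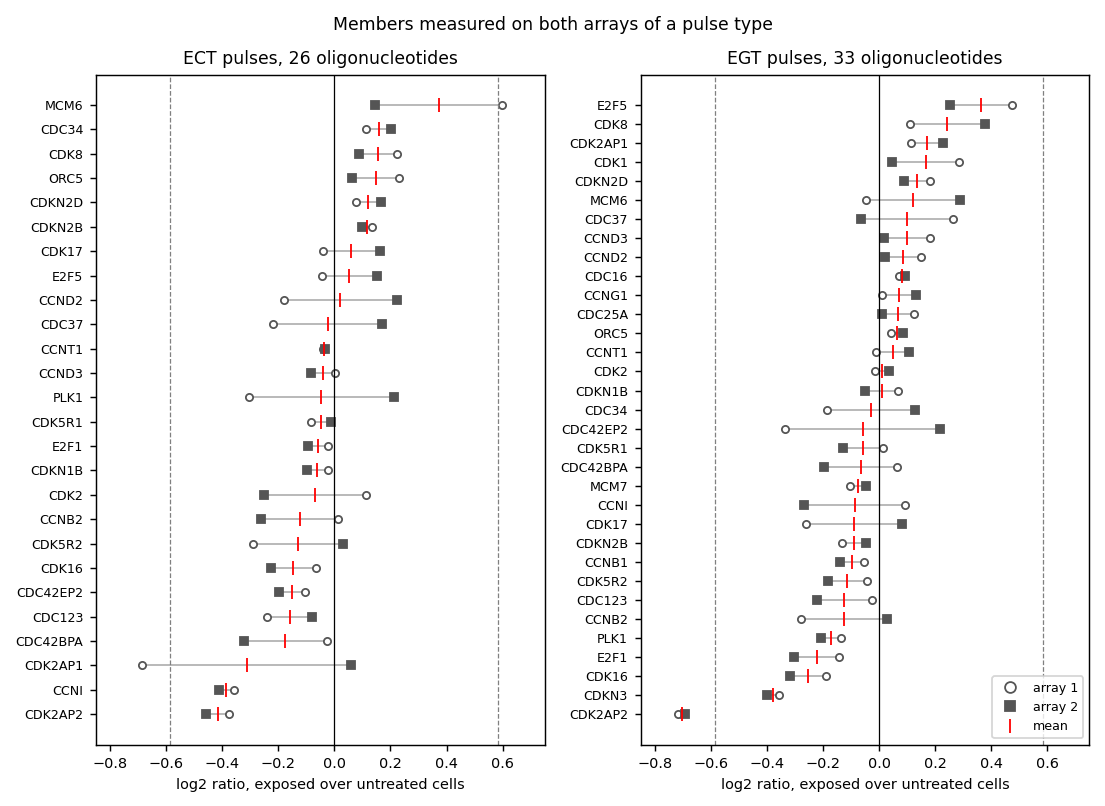
Log2 ratio of exposed over untreated cells for the 26 members tested after ECT pulses (left panel) and the 33 tested after EGT pulses (right panel), in order of their mean. Open circles are array 1, filled squares array 2, red ticks the mean and dashed lines 1.5-fold. CDK2AP2 is lowest in both panels, and its 2 EGT arrays lie beyond the dashed line.

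With both pulse types averaged, limma called 1 of 26 members, CDK2AP2, beside 0.687% of the 1164 oligonucleotides tested. In the higher direction there were 0 members (0.43% of all) and in the lower direction 1 (0.258% of all), and 5 members, 19.2%, had an unadjusted p under 0.05, beside 28.1% of all. The calls moved with the processing. Median centring in place of loess gave 8 members, 2 higher and 6 lower, and called 34.5% of all oligonucleotides, while plain background subtraction, normexp on all spots and no filter on dim spots each gave 0.

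ECT and EGT pulses were then set against each other for the 26 members measured on all arrays. In limma 0 members differed at an adjusted p under 0.05 (0% of all), and 0 members had an unadjusted p under 0.05, beside 2.66% of all. The readings of the 2 pulse types did not overlap for 8 members, 30.8%, beside 27.7% of all 1164 oligonucleotides, and lay on opposite sides of 0 for 1 member, CDKN2B, 3.85%, beside 6.44% of all. The largest differences of ECT minus EGT were -0.48 for CDK2AP1, with a 95% interval of -1.10 to 0.13, -0.31 for E2F5 (-0.69 to 0.07), -0.30 for CCNI (-0.71 to 0.11) and 0.29 for CDK2AP2 (-0.041 to 0.62). All 26 intervals included 0. Their bounds reached -1.10 for CDK2AP1 and 0.76 for MCM6, so they do not show that both pulses act alike.

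**Figure D5:**
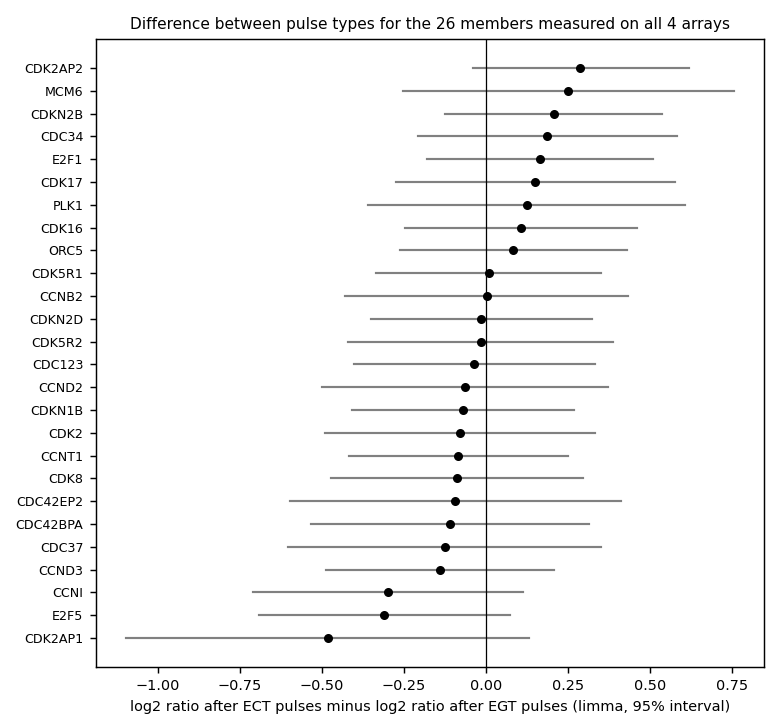
Difference between the log2 ratios after ECT pulses and after EGT pulses (ECT minus EGT) for the 26 members measured on all 4 arrays, with 95% intervals from limma as bars. Every interval crosses 0, from -0.48 for CDK2AP1 at the bottom to 0.29 for CDK2AP2 at the top.

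Other genes of the same pathways, on 35 oligonucleotides of 32 genes, were counted beside the members. limma called 0 of the 21 tested after ECT pulses and 0 of the 23 tested after EGT pulses, and none passed 1.5-fold on both arrays of a pulse type. At an unadjusted p under 0.05 there were 6 of 21 after ECT pulses, beside 16.4% of all oligonucleotides, and 6 of 23 after EGT pulses, beside 15.7% of all. For ECT pulses 11 were above 0 and 10 below, and for EGT pulses 12 were above 0 and 11 below. By group, the medians for ECT and EGT were -0.01 and 0.15 for the pocket proteins and E2F partners, 0.03 and 0.14 for replication fork genes and 0.12 and 0.01 for further mitotic genes. Of the p53 and checkpoint list only CHEK1, a checkpoint kinase, was tested, with means of 0.06 after ECT pulses and -0.13 after EGT pulses. The 4 CDK regulators, SKP2, SKP1, CUL1 and CKS2, all had means below 0 in both comparisons, with medians of -0.42 and -0.30. Over all oligonucleotides 628 of 1176 means were below 0 after ECT pulses and 704 of 1327 after EGT pulses. SKP1 was above 0 on ECT array 2, at 0.105, and on EGT array 1, at 0.02. SKP2, the SCF subunit that targets p27, spread most, at -1.07 and -0.02 after ECT pulses, and at -0.43 and -0.46 after EGT pulses. These 4 oligonucleotides were named after their values were seen.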

How the data were processed

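RNA of SK-MEL28 cells exposed to ECT or EGT pulses (Cy5) and of untreated cells (Cy3) was measured on 4 arrays of Operon 70-mer oligonucleotides. The authors scanned the arrays and extracted the spots with Array-Pro Analyzer, and what they deposited for a spot is its median intensity and its local background, linear and not normalized. The deposited table of log2 ratios was made by the authors with a LOWESS fit and the median of the replicate spots, and served as an alternative. No genome build is used in these files.

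Intensities were handled with limma 3.58.1 under R 4.3.3. Spots with a local background over 1000 (4 spots on EGT array 1) were left out. Background was corrected with normexp (offset 50), which draws the ratios of dim spots toward 0. Spots over 65000, under 2 times background in either channel, or with a background SD over 0.3 of the intensity were removed. Loess (span 0.3, 4 iterations) was fitted within arrays, and the median of at least 2 kept spots was taken. The mean of each pulse type, of both, and the difference of ECT minus EGT were tested with lmFit and eBayes in fits with 1 mean per pulse type, and p-values were adjusted by Benjamini-Hochberg over all oligonucleotides tested. The steps were tested on simulated data.

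Values per array are given for members past 1.5-fold on both arrays, for the 5 highest and 5 lowest members of each pulse type, and for the core members of each role, and others named were picked after their values were seen. The members, the lists and the treatment of high background spots were chosen with earlier results of these data known. Symbols come from the array's annotation, in which 1989 of 3048 oligonucleotides have one, and all 57 members were found in the RefSeq gene table by Entrez number. Promoters were matched by symbol, for 53 of the 56 genes. Array numbers did not pair the arrays, as given under the processing results. The number of arrays limits the precision. Columns that could not be mapped to an array numbered 0.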

Additional observations from a re-analysis of the deposited data

Results flagged for a closer look

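CDKN2B (p15), an inhibitor of CDK4 and CDK6, was above 0 on both ECT arrays, at 0.13 and 0.10, and below 0 on both EGT arrays, at -0.13 and -0.05, so the 2 pulse types lay on opposite sides of 0, as for 6.44% of all oligonucleotides. With median centring the means were 0.41 after ECT pulses and 0.04 after EGT pulses, both above 0. The difference of ECT minus EGT was 0.206 on the log2 scale, with a 95% interval of -0.125 to 0.54 and a limma adjusted p of 0.989. Its intensities were 2.32 to 3.52 times background in exposed cells, against 2.89 to 9.65 times in untreated cells.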

How the results depend on the processing

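CDK2AP2 kept a negative log2 ratio in ECT, EGT and the mean of both under every alternative run, while its calls changed. Members called by limma numbered 0 after ECT pulses (0% of all oligonucleotides) and 4 with median centring (9.95% of all). After EGT pulses they numbered 0 (0% of all), 2 with median centring (6.93% of all) and 1 with the authors' normalized values (0.499% of all). For the mean of both pulse types the count was 1 (0.687% of all), and 8 with median centring (34.5% of all). It was 0 with background subtraction (0.773% of all), with no filter on dim spots (0% of all) and with normexp on all spots (0% of all). Leaving out 1 array gave 0 to 1. The adjusted p of CDK2AP2 was then 0.051 with background subtraction, 0.0932 without the filter and 0.139 with normexp on all spots, and over all alternatives it ran from 0.000156 to 0.314. Over all oligonucleotides the calls for this mean ran from 0 to 401, against 8. The difference between the pulse types gave 0 members under every alternative run. The cause of these changes was not tested.

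Members past 1.5-fold on both ECT arrays numbered 0, beside 0.935% of all oligonucleotides. With median centring they numbered 2 (CCNI and CDK2AP2), beside 2.81% of all. On ECT array 1 alone, MCM6 read 0.60 and CDK2AP1 -0.685. For EGT the count was 1 (0.603% of all), and 0 with normexp on all spots (0.151% of all). The median of the members was -0.048 for ECT, and -0.089 with median centring (12 above 0 and 14 below), -0.086 without background correction, -0.011 without the filter and -0.024 to -0.023 with 1 array left out. For EGT it was -0.029, and 0.071 with the authors' values, 0.034 without the filter, 0.009 with a filter at 1.5 times background and -0.011 to 0.02 with 1 array left out. For the other 32 members measured on both arrays of a pulse type, 569 of 673 recomputed means lay within the SD of the 2 arrays of their main value and 104 moved beyond it. Part of the 569 could not move. With 1 array left out, the remaining value always lies within that SD. The ECT arrays had 0 spots of high background, so normexp on all spots returned the same ECT means. The 569 is therefore not a measure of how stable the values are. Median centring changed the sign of 9 of 26 members after ECT pulses and of 8 of 33 after EGT pulses, and no other alternative that kept all arrays changed more than 2.

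With the array number as a replicate block, the mean of both pulse types gave 1 member, CDK2AP2, and 139 of all oligonucleotides, and the difference gave 0 members. The numbers did not pair the arrays, since ECT 1 minus ECT 2 and EGT 1 minus EGT 2 correlated at r = -0.444. With crossed numbers, a fit added after seeing the data, the counts were 1 and 0 members and 134 oligonucleotides for the mean. Signal of exposed cells over background limits which members can be read.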

Other observations

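The 12 members measured on no array were also read without the filter on dim spots, where background takes part in every value, and some of them have a value in the authors' normalized table. Cyclin A2 (CCNA2), the cyclin of S phase, then had log2 ratios of 0.08 and 0.09 after ECT pulses, and 0.06 and 0.14 after EGT pulses, where the authors' table has 0.216 and 0.198. CDKN1A (p21) read -0.03 and -0.01 after ECT pulses, and 0.01 and -0.11 after EGT pulses, and the authors' table has -0.075 for EGT array 2. CDK7, the CDK activating kinase, read -0.12 and -0.05 after ECT pulses, and -0.04 and -0.20 after EGT pulses, where the authors' table has 0.071 and 0.141, on the other side of 0.

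Without the filter, the 31 members not measured on both ECT arrays had a median of 0.02 (-0.435 to 0.16), with 18 above 0 and 13 below. The 24 members not measured on both EGT arrays had a median of 0.04 (-0.12 to 0.12), with 18 above 0 and 6 below. Of these 31 members, 3 had values in the authors' table for both ECT arrays, with a median of -0.06 (-0.332 to -0.006) and all 3 below 0, and 17 of these 24 had values on both EGT arrays, with a median of 0.11 (-0.084 to 0.344), 14 above 0 and 3 below. In all 4 cases 0 members passed 1.5-fold on both arrays.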
